A study of Homo sapiens with 27 samples.

Results

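Expression of 10 genes of extracellular nucleotide and adenosine signalling was followed in U937 cells given the inhibitor PBD150 and lipopolysaccharide (LPS), LPS alone, or nothing. The 10 members were the P2X receptors P2RX1, P2RX4 and P2RX7, the P2Y receptors P2RY2 and P2RY6, the adenosine receptors ADORA2A, ADORA2B and ADORA3, and the ectoenzymes ENTPD1 and NT5E. The genes were chosen with earlier results of these data known. Their probes were found by gene symbol in the array's probe annotation. All 10 genes were measured, by 12 of the 30968 probes. ADORA3 had 3 probes and the other 9 genes had 1 each. RefSeq places P2RX4 and P2RX7 on chromosome 12, P2RY2 and P2RY6 on chromosome 11, and P2RX1 and ADORA2B on chromosome 17.

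U937 is an established human line from a histiocytic lymphoma, with monocyte-like cells. The labels call the treated cells macrophages and name no differentiating agent. PBD150 plus LPS cells had 10 µM PBD150, an inhibitor of glutaminyl cyclase, for 2 h before LPS at 4 µg/ml. LPS cells had 4 µg/ml LPS, a bacterial wall component sensed by Toll-like receptor 4, and untreated cells had neither agent. All cultures ran for 48 h, and PBD150 alone was not analysed here. Each group had 3 biological replicates with 3 one-colour arrays each, and the arrays of a replicate were averaged. So n = 3 below counts replicates, and these limit the precision, not the 27 arrays. Nothing in the labels says that the replicates came from cultures started separately, so p-values measure only the spread between these samples, which may be technical.

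ATP and other nucleotides leave stressed or activated cells and act on 2 receptor families. P2X receptors are ATP-gated cation channels, and P2Y receptors are G protein-coupled receptors for ATP, UTP, ADP or UDP. The ectoenzymes CD39 (ENTPD1) and CD73 (NT5E) turn extracellular ATP stepwise into adenosine, which acts on its own G protein-coupled receptors and in macrophages is known for damping the release of inflammatory cytokines, while ATP at P2RX7 is known for driving release of interleukin-1 beta.

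Levels are log2 normalised intensities, and a difference is the first group named minus the second on that scale. A level is comparable between groups for 1 probe and not between probes. Array medians ranged from 41.5 to 100.3 intensity units, and 69.0% to 77.8% of probes on an array exceeded its noise limit, which was 3 times the root mean square of the values below 0. Before normalisation untreated replicate 1 stood apart: its 3 arrays had medians of 41.5 to 46.8, while those of the other 2 untreated replicates lay between 69.6 and 74.9. After normalisation other replicates stood apart. The measure was a fixed multiple of the squared difference between replicate means, relative to the variance between technical arrays (median over the brighter probes). These ratios are read against each other, and a ratio of 1 does not mark the absence of a difference. LPS replicate 1 had ratios of 3.44 and 4.27 to the other LPS replicates, which had 1.46 between them. PBD150 plus LPS replicate 3 had ratios of 4.35 and 3.32 to the others of its group, which had 1.04 between them. Ratios among untreated replicates were 0.82 to 1.20. Results were recomputed without each replicate. The median SD between replicates over all probes was 0.37 with PBD150 plus LPS, 0.36 with LPS and 0.21 untreated, while the test uses 1 spread per probe for the 3 groups. Of 10 monocyte or macrophage markers 9 were measured, and 5 of them (CD14, CSF1R, ITGAM, TYROBP and CD163) were higher with LPS than untreated. CD33 (0.48), FCGR1A (0.21), SPI1 (-0.14) and LYZ (-0.65) did not pass. Untreated cells were not without markers of this list, since 8 of the 9 were above noise on all 9 untreated arrays. Their summed linear level was 138910 to 139520 with PBD150 plus LPS, 130800 to 138520 with LPS and 9200 to 9654 untreated, over the 9 measured. These sums add different probes and can rest on 1 or 2 of them: CD14 and TYROBP made up 44.8% and 44.6% with PBD150 plus LPS and 44.7% and 43.6% with LPS. CD14 was within 99% of the array maximum on 9 of 9 LPS arrays and 8 of 9 PBD150 plus LPS arrays, and TYROBP on 6 and 8. With values so near the top of the scale, these sums cannot show whether the 2 LPS groups were alike. Markers of other cell types moved too. Of 6 T or NK lymphocyte markers CD2 and NKG7 were higher with LPS (summed level 31470 to 32403 with PBD150 plus LPS, 31930 to 39807 with LPS and 16269 to 18491 untreated). Of 3 B lymphocyte markers MS4A1 was higher and CD79A lower (513.7 to 625.2 with PBD150 plus LPS, 547.3 to 773.8 with LPS and 1071 to 1139 untreated). Of 5 granulocyte markers ELANE was lower (31027 to 37989 with PBD150 plus LPS, 35738 to 38361 with LPS and 66197 to 66318 untreated). ELANE alone made up 97.3% of that sum with PBD150 plus LPS, 97.6% with LPS and 98.9% untreated, and was within 99% of the array maximum on 8 of 9 untreated arrays. The other 4 granulocyte markers did not pass. Of 4 fibroblast or epithelial markers EPCAM was higher (640.8 to 800.2 with PBD150 plus LPS, 525.1 to 784.8 with LPS and 392.7 to 470.4 untreated). In PBD150 plus LPS against LPS, where 0% of all genes were higher and 0% lower, 0 markers of these lists passed. Their part in the results was not tested.

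Promoter sequences (250 bases before the gene's start) were taken from RefSeq, build GRCh38.p14, and matched 6 of the 10 genes (not P2RX1, P2RY2, P2RY6 or ADORA2A). The 4 printed belong to 3 receptor genes that were higher with LPS than untreated under every processing tried (P2RX4, P2RX7 and ADORA3) and, for contrast, to NT5E, which passed no test. Each runs 5′ to 3′ along the gene's strand, with motif matches in capitals.
P2RX4 (chr12:121209879-121210128, + strand): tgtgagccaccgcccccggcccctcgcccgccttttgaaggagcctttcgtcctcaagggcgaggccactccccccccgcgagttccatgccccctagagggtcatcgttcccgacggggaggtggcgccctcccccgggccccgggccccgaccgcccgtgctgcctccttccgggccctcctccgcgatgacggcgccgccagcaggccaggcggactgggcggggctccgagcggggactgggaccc
P2RX7 (chr12:121132626-121132875, + strand): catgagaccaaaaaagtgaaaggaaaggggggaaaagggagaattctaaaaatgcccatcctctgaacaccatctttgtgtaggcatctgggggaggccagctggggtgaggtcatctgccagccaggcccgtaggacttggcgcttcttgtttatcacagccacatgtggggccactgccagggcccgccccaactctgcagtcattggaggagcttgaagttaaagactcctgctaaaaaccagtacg
ADORA3 (chr1:111503634-111503883, - strand): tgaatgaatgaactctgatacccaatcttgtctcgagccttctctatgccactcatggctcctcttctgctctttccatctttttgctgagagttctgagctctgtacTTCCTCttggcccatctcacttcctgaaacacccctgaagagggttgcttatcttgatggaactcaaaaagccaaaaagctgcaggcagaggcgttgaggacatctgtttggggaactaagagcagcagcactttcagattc
NT5E (chr6:85449833-85450082, + strand): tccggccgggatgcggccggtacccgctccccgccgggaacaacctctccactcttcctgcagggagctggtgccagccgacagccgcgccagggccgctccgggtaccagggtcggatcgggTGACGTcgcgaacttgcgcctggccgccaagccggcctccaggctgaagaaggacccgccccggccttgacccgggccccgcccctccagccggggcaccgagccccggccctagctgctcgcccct
Matches were searched on both strands for AP-1 (TGACTCA), CRE (TGACGT), PU.1 (GAGGAA), C/EBP (TTGCNNAA), the TATA box (spelled TATAAA) and kappa B. The printed windows held a single match in ADORA3, to PU.1 on the opposite strand and beginning 142 bases before the start, and a single match in NT5E, to CRE and beginning 127 bases before it, and these overlapped no other motif. A PU.1 match stood in 23.6% and a CRE match in 7.10% of 35116 promoter windows of the same length, and the shares for the others were 4.20% for AP-1, 9.05% for C/EBP, 10.7% for TATA and 9.96% for kappa B. The P2RX4 and P2RX7 windows held no match. The windows differed in base composition: G and C made up 76.0% in P2RX4, 53.2% in P2RX7, 47.2% in ADORA3 and 75.2% in NT5E, against a median of 58.0% over all promoters. The starts of P2RX4 and P2RX7 lie 77.3 kb apart on the same strand. A match is a run of letters, not a measured binding site.

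Transcripts of the 3 P2X channels and of the adenosine receptor ADORA3 rose with LPS. P2RX1, P2RX4, P2RX7 and ADORA3 were 2.73-fold to 7.38-fold higher with LPS than untreated, by each gene's brightest probe. ADORA2B and ENTPD1 also passed the test, at lower certainty. Of the 10 members 6 were higher and 0 lower at an adjusted p under 0.05, where over 15207 genes 13.6% were higher and 15.4% lower. The median difference was 1.16 over the members and 0.05 over all genes. At an unadjusted p under 0.05 there were 7 members, against 41.5% of all genes. These shares describe the list and do not test it, since it was chosen with earlier results of these data known.

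**Figure D1:**
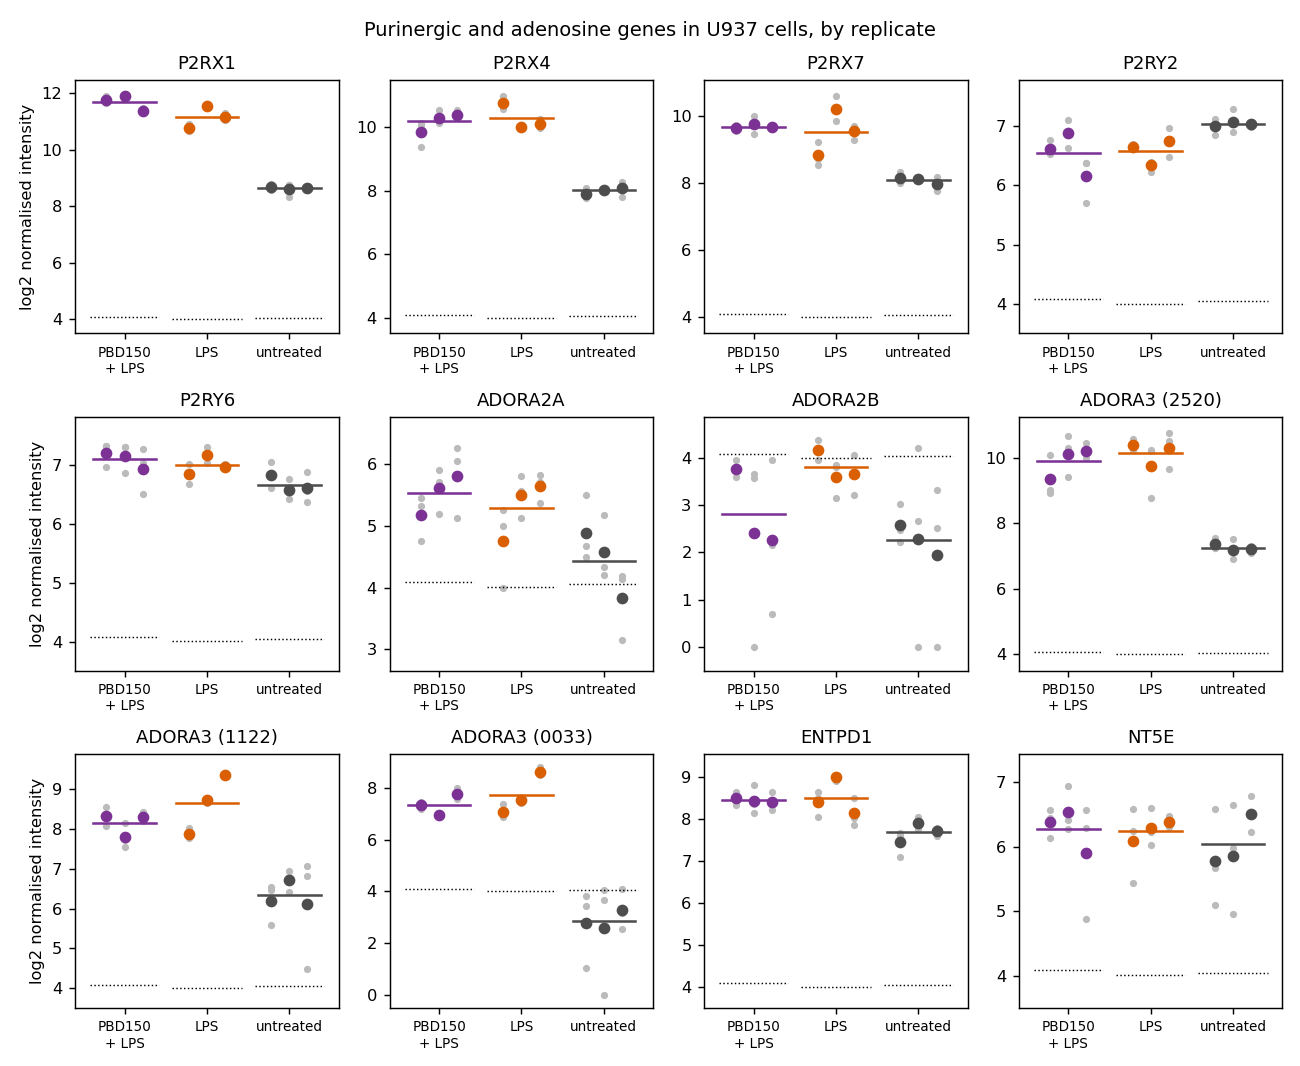
Log2 normalised intensity (vertical axis) of each probe of the 10 genes in PBD150 plus LPS, LPS and untreated cells. Coloured points are the 3 replicates, coloured lines their mean, grey points the 27 single arrays and dotted lines the group's mean noise limit. P2RX1, P2RX4, P2RX7 and all 3 ADORA3 probes (last 4 digits of the probe in brackets) separate both LPS groups from untreated cells, and ADORA2B lies near or under the noise limit in every group.

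P2RX1 encodes a fast-desensitising ATP-gated channel, best known from platelets and myeloid cells. Its level was 11.79, 11.90 and 11.40 in the PBD150 plus LPS replicates, 10.78, 11.57 and 11.18 in the LPS replicates, and 8.69, 8.62 and 8.64 in the untreated replicates. The lowest LPS replicate stood above the highest untreated one, and in deposited units the replicates averaged 2135, 3392 and 2487 with LPS against 310.6, 383.5 and 389.8 untreated. P2RX1 was 2.52 ± 0.24 (SE, n = 3) higher with LPS, a 5.75-fold rise with an adjusted p of 0.000207. Among platelet markers, PPBP was higher by 6.55 with LPS, PF4 and ITGA2B did not pass the test, and GP1BA was above noise on no array of either group. The summed level of the 4 platelet markers was 52515 to 65997 with PBD150 plus LPS, 23554 to 66091 with LPS and 834.1 to 887 untreated, of which PPBP made up 99.3% with PBD150 plus LPS, 98.9% with LPS and 53.4% untreated.

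P2RX4 encodes a slowly desensitising channel found on the surface and in lysosomes of macrophages. It measured 9.86, 10.29 and 10.39 in the PBD150 plus LPS replicates, 10.77, 10.00 and 10.11 in the LPS replicates, and 7.91, 8.03 and 8.08 in the untreated replicates. LPS replicate 1 was the highest of all 9, while for P2RX1 it had been the lowest of its group. The difference between LPS and untreated cells was 2.29 ± 0.25, or 4.88-fold, with an adjusted p of 0.000400.

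P2RX7 encodes the channel that opens at high ATP concentrations and is known for triggering the NLRP3 inflammasome. Its level was 9.64, 9.76 and 9.69 in the PBD150 plus LPS replicates, 8.84, 10.21 and 9.55 in the LPS replicates, and 8.17, 8.12 and 7.96 in the untreated replicates. The LPS replicates were the most scattered (SD 0.69), against 0.06 with PBD150 plus LPS and 0.11 untreated, and still none overlapped the untreated ones. P2RX7 was 1.45 ± 0.31 higher with LPS, or 2.73-fold, with an adjusted p of 0.0115. Without LPS replicate 2 the difference was 1.11, and without LPS replicate 1 it was 1.80, with the highest adjusted p over the left-out replicates at 0.0446.

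Neither P2Y receptor among the members passed the test. P2RY2, a receptor for ATP and UTP known for sensing nucleotides from dying cells, measured 6.61, 6.87 and 6.15 in the PBD150 plus LPS replicates, 6.65, 6.33 and 6.74 in the LPS replicates, and 6.996, 7.07 and 7.03 in the untreated replicates. Every LPS replicate lay below every untreated one, with a difference of -0.46 ± 0.23 and an adjusted p of 0.194. Such separation also occurred outside the members. Of 56 measured genes in the related lists described below, 17 had all LPS replicates above the untreated ones and 11 had all below. The share over all genes is not reported here for this comparison. The separation of a single gene therefore has no base rate over all genes beside it. On values as deposited the P2RY2 difference was -0.073 (adjusted p = 0.858) and the replicates overlapped, with 109.6, 96.7 and 120.7 intensity units with LPS against 94.9, 125.2 and 124.5 untreated. P2RY6, a receptor for UDP, measured 7.21, 7.16 and 6.95 with PBD150 plus LPS, 6.85, 7.19 and 6.98 with LPS, and 6.83, 6.58 and 6.61 untreated. Its LPS replicates lay above the untreated ones by a mean of 0.33 ± 0.18, and the adjusted p was 0.243. The 95% interval of the difference was -0.97 to 0.06 for P2RY2 and -0.09 to 0.74 for P2RY6.

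ADORA3 encodes an adenosine receptor coupled to inhibitory G proteins. Its brightest probe measured 9.34, 10.12 and 10.22 in the PBD150 plus LPS replicates, 10.37, 9.74 and 10.31 in the LPS replicates, and 7.35, 7.20 and 7.22 in the untreated replicates. The untreated replicates lay close together and below every replicate of both other groups. The difference between LPS and untreated cells was 2.88 ± 0.28, a 7.38-fold rise with an adjusted p of 0.000228, and the largest among the 10 members by their brightest probes.

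The 3 ADORA3 probes had the same direction and differed in size. Probe PH_hs_0031122 measured 8.32, 7.81 and 8.30 with PBD150 plus LPS, 7.87, 8.73 and 9.36 with LPS, and 6.20, 6.72 and 6.12 untreated, and was 2.31 ± 0.38 higher with LPS (adjusted p = 0.00283). Probe PH_hs_0000033 measured 7.33, 6.94 and 7.76 with PBD150 plus LPS, 7.06, 7.54 and 8.63 with LPS, and 2.77, 2.57 and 3.26 untreated. This dimmest probe was above noise on 9 of 9 LPS arrays and 2 of 9 untreated arrays, so its fitted difference of 4.87 ± 0.41 (adjusted p = 0.000123) rests on untreated values near the noise and depends on the floor: with 16 added to every intensity it was 3.20. The LPS replicates were also ordered differently, since replicate 1 was the highest by the brightest probe and the lowest by the other 2 probes. Which transcripts the 3 probes read was not analysed here.

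ADORA2A and ADORA2B encode adenosine receptors that raise cyclic AMP, ADORA2A at low and ADORA2B at high adenosine concentrations. ADORA2A measured 5.17, 5.60 and 5.81 in the PBD150 plus LPS replicates, 4.75, 5.49 and 5.63 in the LPS replicates, and 4.89, 4.57 and 3.83 in the untreated replicates. LPS replicate 1 overlapped the untreated range, and the difference of 0.86 ± 0.35 did not pass the test (adjusted p = 0.117). ADORA2B measured 3.76, 2.41 and 2.27 with PBD150 plus LPS, 4.17, 3.60 and 3.66 with LPS, and 2.57, 2.29 and 1.95 untreated. It was above noise on only 1 of 9 PBD150 plus LPS arrays, 3 of 9 LPS arrays and 1 of 9 untreated arrays. The ADORA2B difference of 1.54 ± 0.40 between LPS and untreated cells passed (adjusted p = 0.0253) among values mostly under the noise limit, and was 0.46 with 16 added to every intensity. The call was lost without untreated replicate 2 or 3 and without LPS replicate 1, 2 or 3 (adjusted p 0.0517 to 0.0859), and was not made on the 27 single arrays (0.133).

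ENTPD1 (CD39) hydrolyses ATP and ADP to AMP. It measured 8.50, 8.43 and 8.39 in the PBD150 plus LPS replicates, 8.39, 8.99 and 8.13 in the LPS replicates, and 7.45, 7.89 and 7.71 in the untreated replicates. Both LPS groups lay above the untreated replicates and overlapped each other. ENTPD1 was 0.82 ± 0.25 higher with LPS than untreated, or 1.77-fold, with an adjusted p of 0.0450. That call was made narrowly. It was lost on leaving out any replicate other than LPS replicate 3 (adjusted p up to 0.145), with median centring (0.0843), with the replicate block (0.0659) and with only the 2 groups in the fit (0.0812).

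NT5E (CD73), which turns AMP into adenosine, measured 6.39, 6.54 and 5.91 in the PBD150 plus LPS replicates, 6.09, 6.29 and 6.39 in the LPS replicates, and 5.79, 5.86 and 6.51 in the untreated replicates. The 3 groups overlapped. The difference between LPS and untreated cells was 0.20 ± 0.26 with an adjusted p of 0.633 and a 95% interval of -0.39 to 0.80.

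PBD150 before LPS was set against LPS alone to ask whether the inhibitor altered the LPS response. Of the 10 members 0 were higher and 0 lower by limma, as were 0% and 0% of the 15207 genes. At an unadjusted p under 0.05 there was 1 member, ADORA2B, against 4.46% of all genes, and a fit on the 27 single arrays also called 0 members. Nor did the replicates separate: 0 members had all PBD150 plus LPS replicates above the LPS ones and 0 had all below, against 3.27% and 4.47% of all genes. The median difference was -0.0024 over the members and -0.0058 over all genes.

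The 95% intervals of these differences are unadjusted. They show which sizes go with these values, not what the adjusted test could call. P2RX1 differed by 0.52, with a 95% interval of -0.03 to 1.07 and an adjusted p of 0.906. It was 0.32 without LPS replicate 1, 0.71 without LPS replicate 2 and 0.30 on values as deposited. P2RX4 differed by -0.11 (interval -0.69 to 0.46) and P2RX7 by 0.16 (interval -0.56 to 0.88). P2RY2 differed by -0.03 (interval -0.55 to 0.48) and P2RY6 by 0.10 (interval -0.31 to 0.52). None of these 5 nucleotide receptors passed the test, and the intervals do not show that the groups were alike, since the upper end for P2RX1 is a 2.09-fold difference.

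ADORA2B had the widest difference, at -0.99 ± 0.40 with a 95% interval of -1.91 to -0.08, and it was -0.28 with 16 added to every intensity. Its adjusted p was 0.906, and PBD150 plus LPS replicate 1, at 3.76, stood above LPS replicates 2 and 3. Single arrays read -2.73 to 18.0 intensity units with PBD150 plus LPS, the lowest of them below the floor of 1, against 10.4 to 20.8 with LPS. ADORA2A differed by 0.23 (interval -0.56 to 1.03), and ADORA3 by -0.25 (interval -0.89 to 0.39), -0.51 and -0.40 by its 3 probes. ENTPD1 differed by -0.06 (interval -0.62 to 0.50) and NT5E by 0.03 (interval -0.57 to 0.62).

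**Figure D2:**
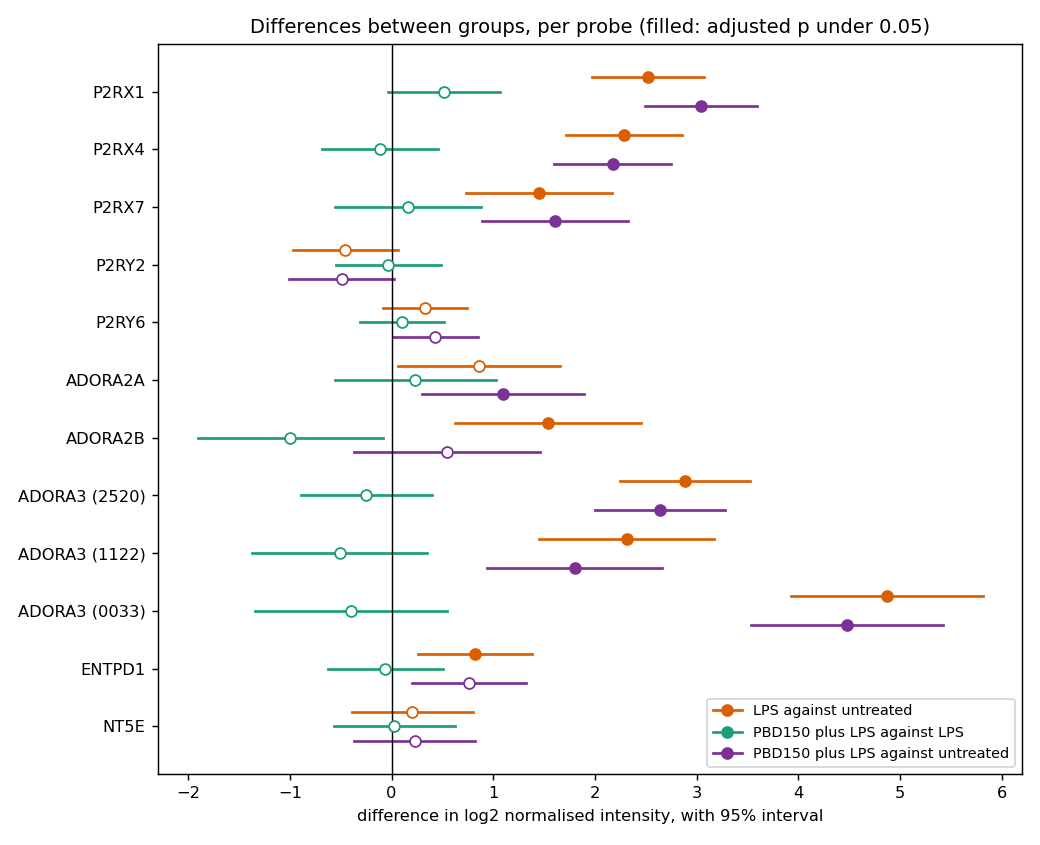
Difference in log2 normalised intensity (horizontal axis) of each probe of the 10 genes in the 3 comparisons, as points with 95% intervals. Filled points have an adjusted p under 0.05. P2RX1, P2RX4, P2RX7 and ADORA3 lie well right of 0 in both comparisons with untreated cells, and every point for PBD150 plus LPS against LPS is open.

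PBD150 plus LPS cells were also compared with untreated cells, a comparison that shares the untreated replicates with that of LPS alone. Of the 10 members 5 were higher and 0 lower, where 15.3% of genes were higher and 17.9% lower, with a median difference of 0.93 over the members and 0.06 over all genes. P2RX1 was higher by 3.04 ± 0.24 (8.23-fold, adjusted p = 7.39e-05), and P2RX4 by 2.17 ± 0.25 (4.51-fold, adjusted p = 0.000431). P2RX7 was higher by 1.61 ± 0.31 (3.05-fold, adjusted p = 0.00613), and ADORA3 by 2.64 ± 0.28 (6.22-fold, adjusted p = 0.000281). The same 4 genes passed here and with LPS alone, in each of the alternative processings tried.

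A further 3 members sat near the threshold. ADORA2A passed, at 1.10 ± 0.35 (2.14-fold, adjusted p = 0.0488), and its PBD150 plus LPS replicates all lay above the untreated ones, of which 8 of 9 arrays were above noise. That call was lost without untreated replicate 2 or 3, without LPS replicate 2 or 3 or without any 1 of the PBD150 plus LPS replicates (adjusted p 0.0563 to 0.149), and with the replicate block (0.0936), median centring (0.0782) or only the 2 groups (0.0544). ENTPD1 missed, at 0.76 ± 0.25 (adjusted p = 0.0530), with the groups again apart, and it passed under 8 of 17 alternatives. ADORA2B did not pass, at 0.54 ± 0.40 (adjusted p = 0.357), nor did P2RY2 at -0.49 (interval -1.004 to 0.03), P2RY6 at 0.43 (interval 0.02 to 0.85) or NT5E at 0.23 (interval -0.37 to 0.82). Whether the 2 comparisons with untreated cells differ for ADORA2A, ADORA2B or ENTPD1 is the comparison of PBD150 plus LPS with LPS, which none passed.

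**Figure D3:**
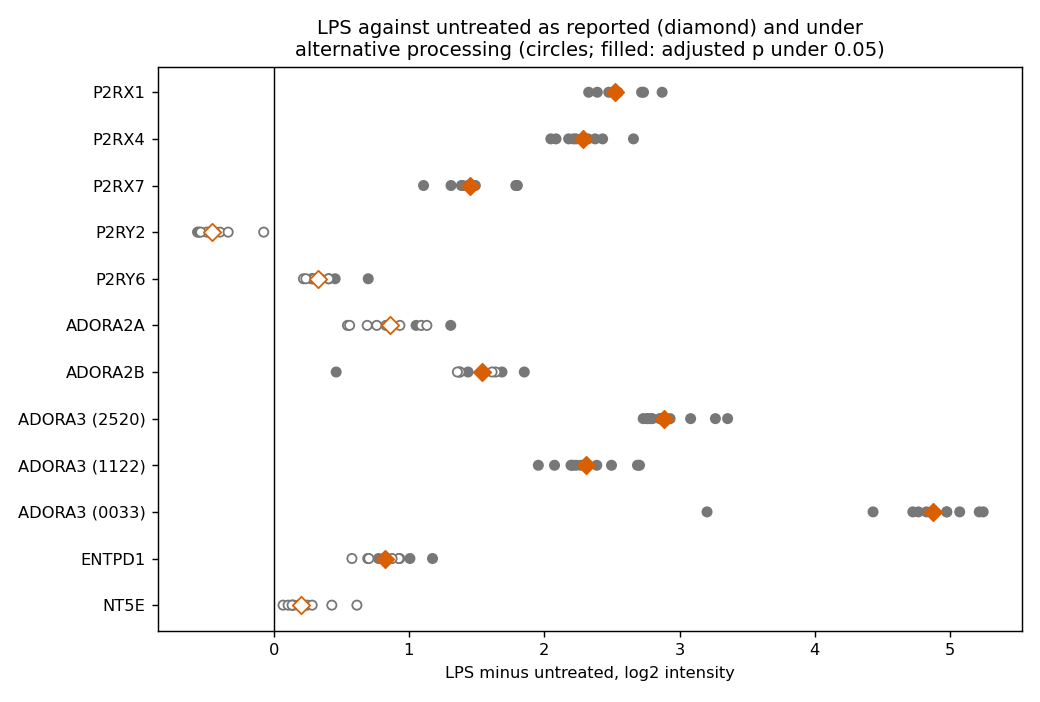
LPS minus untreated in log2 intensity (horizontal axis) for each probe of the 10 genes, as reported (diamonds) and under the alternative processings (circles). Filled marks have an adjusted p under 0.05. P2RX1, P2RX4, P2RX7 and the ADORA3 probes stay filled throughout, while ADORA2B, ENTPD1, ADORA2A, P2RY2 and P2RY6 hold both filled and open marks.

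The rest of the pathway was read from 8 lists of 60 genes, of which 56 were measured. Of these 13 were higher and 5 lower with LPS than untreated, with a median difference of 0.08, where 13.6% of all genes were higher and 15.4% lower, shares against which the counts of the lists below are also to be read. With PBD150 plus LPS against untreated 12 were higher and 6 lower, where 15.3% and 17.9% of all genes were. With PBD150 plus LPS against LPS 0 were higher and 0 lower, and 1 had an unadjusted p under 0.05. The receptors outside the members mostly did not pass: of 4 further P2X genes 0 were higher or lower with LPS, and of 5 further P2Y genes 1 was higher and 0 lower. That gene was P2RY13, an ADP receptor, which measured 6.503, 6.83 and 7.34 with PBD150 plus LPS, 7.39, 7.01 and 7.18 with LPS and 4.19, 4.14 and 4.17 untreated. It was higher by 3.03 with LPS (adjusted p = 8.87e-05) and by 2.73 with PBD150 plus LPS (adjusted p = 0.000118). Its untreated values lay near the noise limit, with 8 arrays above it. Over the alternatives P2RY13 passed throughout, and the differences were as low as 2.24 with LPS and 1.98 with PBD150 plus LPS. ADORA1, the fourth adenosine receptor, measured 6.62, 6.04 and 6.98 with PBD150 plus LPS, 6.76, 6.87 and 7.09 with LPS and 6.89, 6.87 and 6.97 untreated, and did not pass with LPS (difference -0.0041, adjusted p = 0.993).

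Among 11 other ectoenzymes of nucleotide and adenosine turnover 3 were higher and 1 lower with LPS. The lower one was ENPP3, at -0.84 (adjusted p = 0.0383), which was above noise on 11 of the 27 arrays. ADA2, the secreted adenosine deaminase, was higher by 1.75 with LPS (adjusted p = 0.000343) and by 1.85 with PBD150 plus LPS (adjusted p = 0.000216). ADA, the other deaminase, was higher by 0.95 with LPS (adjusted p = 0.0383) by its brighter probe. Its other probe differed by -0.37 (interval -2.20 to 1.47) and did not pass. The LPS replicates of that probe were scattered, with an SD of 1.99 against 0.12 untreated. With PBD150 plus LPS it differed from untreated by 0.40 and did not pass either. The ADA call with LPS was lost with the mean of both probes (0.29, adjusted p = 0.738) and under median centring or the replicate block. It was also lost on leaving out any untreated replicate, LPS replicate 2 or 3, or PBD150 plus LPS replicate 1. DPP4, which binds adenosine deaminase at the cell surface, was higher by 1.14 (adjusted p = 0.0233) but above noise on only 3 of 9 LPS arrays and 2 of 9 untreated arrays. The DPP4 call was lost without untreated replicate 1 or 2 or LPS replicate 1 or 3 (adjusted p up to 0.0879), with median centring (0.0508) and on single arrays (0.188). With 16 added to every intensity the DPP4 difference was 0.34 (adjusted p = 0.126). Among 4 intracellular relatives of ENTPD1, 1 was lower and 0 higher: ENTPD7 differed by -1.19 with LPS (adjusted p = 0.00207).

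Of 5 genes of nucleotide release 2 were higher and 1 lower. GJA1 (connexin 43), whose hemichannels pass ATP, measured 10.77, 10.54 and 11.20 with PBD150 plus LPS, 10.62, 10.79 and 11.62 with LPS and 4.94, 4.91 and 4.68 untreated. It had the widest rise of the 56 genes, at 6.16 with LPS (adjusted p = 1.02e-05). PANX1, a channel through which ATP leaves cells, was higher by 1.01 (adjusted p = 0.00313). SLC17A9, the vesicular nucleotide transporter, measured 11.06, 11.23 and 10.49 with PBD150 plus LPS, 9.46, 11.20 and 10.29 with LPS and 11.70, 11.72 and 11.70 untreated. It fell by 1.39 with LPS (adjusted p = 0.0403), or by 0.96 without LPS replicate 1 (adjusted p = 0.0727). The SLC17A9 call was also lost without any 1 untreated replicate, LPS replicate 3 or PBD150 plus LPS replicate 1 or 2. The same held on values as deposited (-1.08, adjusted p = 0.0692) and with only the 2 groups in the fit (0.0681).

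Of 9 genes of nucleoside transport and adenosine clearance 1 was higher and 1 lower. SLC29A1, the equilibrative transporter that carries adenosine into cells, measured 12.17, 11.66 and 11.76 with PBD150 plus LPS, 11.81, 11.70 and 11.87 with LPS and 13.94, 14.14 and 14.18 untreated. It fell by 2.30 with LPS (adjusted p = 0.000123) by its brighter probe, and the dimmer probe was under the noise limit. AK1, which interconverts adenine nucleotides, was higher by 0.75 (adjusted p = 0.0216) by its brighter probe and differed by 0.07 by the other, and the AK1 call was lost without any 1 untreated replicate or LPS replicate 2 or 3 (adjusted p up to 0.0775). The AK1 call was also lost with the replicate block (0.0631), on single arrays (0.129) and with median centring, and the mean of both probes gave 0.41 (adjusted p = 0.135). Of 17 genes of G protein and cyclic AMP steps 6 were higher and 1 lower, with a median difference of 0.03. With PBD150 plus LPS against untreated 7 were higher and 3 lower. The gene lower with LPS was PRKACB, at -1.93 (adjusted p = 0.00604). ADCY4, an adenylyl cyclase, was higher by 2.18 (adjusted p = 0.000133). RAPGEF3, a cyclic AMP-activated exchange factor, was higher by 1.96 (adjusted p = 0.000834) by its brighter probe. The other RAPGEF3 probe differed by 0.77 and did not pass. GNAI2, an inhibitory G protein subunit, was higher by 1.73 (adjusted p = 0.000923) by its brighter probe and by 1.31 by the other.

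**Figure D4:**
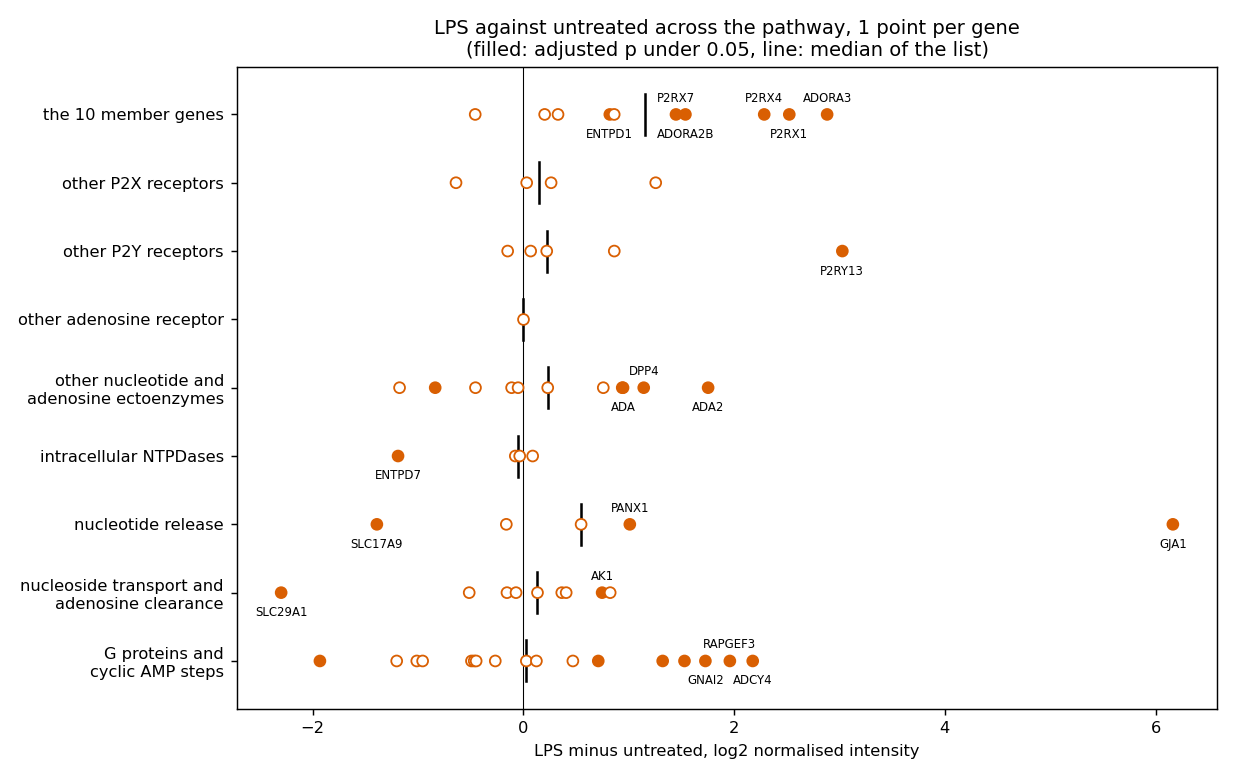
LPS minus untreated in log2 normalised intensity (horizontal axis) for the 10 members and the 56 measured genes of 8 related lists, 1 point per gene. Filled points have an adjusted p under 0.05 and vertical lines mark the median of each list. The 6 member points called higher lie right of 0, and GJA1 is the point farthest to the right.

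The genes whose levels over the 9 replicates were most like those of the 4 members with the smallest p were also read, among 9265 genes at or above the median probe. Pearson's r is given as a description only, since all 9 points share the step between untreated and LPS groups. The nearest to P2RX1 were GDPD5 (r = 0.998) and CD99L2 (0.998), and to P2RX4 ACSL4 (0.996) and MCTP2 (0.995). The nearest to ADORA3 were NCEH1 (0.995) and AQP9 (0.995), and to P2RX7 GM2A (0.9903) and SMIM14 (0.9899). No 2 of the 4 members shared any of these genes. With only 2 taken for each member, that does not show that their profiles differed.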

How the data were processed

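RNA was read on one-colour Phalanx Human OneArray arrays with Cy5 label, per the labels' protocols. The deposited values are linear spot intensity, 1 per probe and array, with background subtracted before deposit as far as values below 0 show. The scanner and any scaling between arrays were not stated in the labels or file header. No sample column was left unused (0). Intensities were floored at 1 (4.35% to 7.59% of an array), log2 transformed and quantile normalised over 27 arrays, and the 3 arrays of a replicate were averaged. limma 3.58.1 in R 4.3.3 fitted group means over 9 replicates without a block, and two-sided p-values from the moderated statistic were adjusted (Benjamini-Hochberg) across 30968 probes and called under 0.05. Code was tested on simulated data. A gene was called by its brightest probe (15207 genes). Of the probes 17397 had 1 symbol, 0 several and 13571 none here, and 2645 older symbols were updated through RefSeq genes. Named were all members with every probe, up to 3 genes per list with the smallest p among those passing with LPS, the gene of a 1-gene list, and the 2 genes most correlated with each of 4 members. ENPP3 and PRKACB were named besides, as the remaining list genes called lower with LPS. Alternatives are not given for ENPP3 and PRKACB. Members and lists were chosen with earlier results of these data known. Alternatives covered scaling, pseudocount, dim probes, replicate block, single arrays, array weights, left-out replicates, 2-group fits and probe means.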

Additional observations from a re-analysis of the deposited data

How the results depend on the processing

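P2RX1, P2RX4, P2RX7 and all 3 ADORA3 probes passed in both comparisons with untreated cells under every alternative tried, 17 or 18 each, and no member passed in PBD150 plus LPS against LPS under any. The count of members higher with LPS than untreated ranged from 4 to 8, and with PBD150 plus LPS than untreated from 4 to 7. The count lower became 1 instead of 0 with the 27 single arrays and replicate as a random effect (LPS against untreated, and PBD150 plus LPS against untreated) and with array weights (LPS against untreated); the gene was P2RY2 each time. Without scaling, the median of all probes was shifted by 0.41 with LPS and by 0.31 with PBD150 plus LPS against untreated, and by -0.12 between the LPS groups, so differences of that size carry no direction of their own. In LPS against untreated 5935 probes were then higher and 2205 lower, against 2279 and 3806 with median centring. The single-array fit called 1 probe higher and 13 lower in PBD150 plus LPS against LPS, none of them a member.

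Small differences in PBD150 plus LPS against LPS changed sign without passing. With values as deposited P2RX7 was -0.029, P2RY6 -0.030 and NT5E -0.11. With array weights P2RX4 was 0.024, P2RX7 -0.18 and P2RY2 0.18. On leaving out 1 replicate P2RX4 ranged from -0.26 to 0.12, P2RX7 from -0.19 to 0.50, P2RY2 from -0.20 to 0.17, ADORA2A from -0.036 to 0.41, ADORA3 from -0.45 to 0.029 and by probe PH_hs_0000033 from -0.74 to 0.045, ENTPD1 from -0.25 to 0.18 and NT5E from -0.11 to 0.21. In LPS against untreated ADORA1 was 0.37 as deposited, 0.017 with array weights and -0.096 to 0.070 on leaving out 1 replicate. P2RY6 passed in LPS against untreated as deposited (0.70) and with array weights (0.45), and ADORA2A as deposited (1.31), with array weights (1.05) and on single arrays (0.86). Over the genes named, ENPP3 and PRKACB left aside, 971 recomputed values kept direction and side of the threshold. Another 77 lost the call, 24 gained one and 24 changed sign.

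Deviations of same-numbered replicates from their group means had correlations from -0.51 to 0.12 between groups. With 3 replicates per group these cannot tell whether a number marks a shared day or batch. With a replicate block ENTPD1 in LPS against untreated (adjusted p 0.0659) and ADORA2A in PBD150 plus LPS against untreated (0.0936) lost their calls, leaving 5 and 4 members higher, and no other member's call changed. Of the other genes named and recomputed, ADA (0.0666) and AK1 (0.0631) lost theirs in LPS against untreated. So did AK1 (0.0813) and PANX1 (0.0726) in PBD150 plus LPS against untreated. ADORA2B, and the ADORA3 probe PH_hs_0000033 and P2RY13 in untreated cells, are limited by signal near the noise limit, a normalised level of 3.72 to 4.39.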
